A study of Gallus gallus with 2 samples.

Results

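Genes of the Hedgehog pathway and of ventral neural tube identity were followed in sorted cells of the chicken neural tube. The set holds 10 genes, chosen by name: SHH, PTCH1, GLI1, GLI2, GLI3, FOXA2, NKX2-2, OLIG2, NKX6-1 and NKX6-2. Every probe set whose gene symbol in the platform annotation matched a member was taken, which gave 11 probe sets for 9 of the 10 genes, out of 13008 genes with a probe set. NKX2-2 was not matched by symbol and was not analysed here. GLI1 lay below background on both arrays, so 8 genes could be compared.

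All embryos were electroporated on both sides at Hamburger-Hamilton stage (HH) 9 with the GFP plasmid pSuper-neo-GFP, and GFP-positive neural tube cells were sorted at HH11. The control group is 1 sample that received this plasmid without a hairpin. The knockdown group is 1 sample that received the same plasmid with short hairpin RNAs against Sox4 and Sox11. The labels further state that embryos were kept for 2 days, longer than the usual step from HH9 to HH11, so the stage is uncertain. The sources used here do not say how many embryos were pooled.

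Sonic hedgehog is secreted by the notochord and then by the floor plate, and spreads dorsally through the neural tube. It binds its receptor PTCH1 and so releases the membrane protein SMO, which acts in the primary cilium on the GLI transcription factors. GLI2 then works mainly as an activator, GLI3 mainly as a repressor where the signal is low, and GLI1 and PTCH1 are themselves target genes. The graded signal sets up ventral progenitor domains: FOXA2 marks the floor plate, NKX2-2 the domain next to it, OLIG2 the motor neuron progenitors, and NKX6-1 and NKX6-2 wider ventral territories.

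The signal intensity of a probe set is given as deposited, on a linear scale. Background, the 95th percentile of probe sets for viral sequences, was 63.6 (control array) and 65.8 (knockdown array). With 1 array per group there was no replicate spread and no test, so "higher" and "lower" describe these 2 arrays, and array and treatment cannot be told apart. As a yardstick served the probe set spread, the SD of log2 ratios among measured probe sets of the same gene. Probe sets of a gene were compared whatever their intensities, and the deviations were then pooled over probe sets of similar intensity. The spread was 0.41 to 0.52 (SD) for the members, and it covers neither biological nor array-to-array variation. The targeted genes were both lower in the knockdown, SOX4 by a log2 ratio of -1.06 and SOX11 by -0.71. Pan-neuronal genes were lower too, so hairpin action cannot be read from these values alone.

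SHH, the ligand, was the member with the largest difference. Its probe set read 282 in the control sample and 653 in the knockdown sample. This is 2.32-fold higher in the knockdown, a log2 ratio of 1.21 and 2.48 times the probe set spread. Both intensities were above background, at 4.44 times background in the control and 9.93 times in the knockdown. Measured genes were split into 10 equal groups by mean intensity. Of the 930 genes in the group of SHH, 37 (3.98%) had a log2 ratio of at least that size in either direction, and 180 of all 9303 measured genes (1.93%) had a log2 ratio as high or higher. In these bulk samples, a different number of SHH-expressing cells and a different amount of SHH RNA per cell cannot be told apart.

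PTCH1 encodes the receptor for SHH and is a target gene of the pathway. Its brighter probe set read 9616 in the control and 8888 in the knockdown, a log2 ratio of -0.11. That is a 1.08-fold lower signal, well inside the probe set spread of 0.41. The dimmer probe set of PTCH1 read 35, below background, in the control and 82.7, just above background, in the knockdown, which makes it at least 1.30-fold higher. The probe sets of PTCH1 therefore disagreed in direction, and the dimmer one lay under the intensity at which a probe set was called measured.

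GLI3, the main repressor among the GLI factors, was the member furthest below 0. Its signal was 5737 in the control and 3678 in the knockdown, which is 1.56-fold lower, with a log2 ratio of -0.64. This was 1.47 times the probe set spread, and 64 of 930 genes in its intensity group (6.88%) had a log2 ratio of at least that size. GLI2, which acts mainly as an activator, was nearly even: its brighter probe set read 393 in the control and 395 in the knockdown, a log2 ratio of 0.01. The sign of the GLI2 ratio turned below 0 under median centring, quantile normalization, loess centring and the mean of all probe sets. The dimmer GLI2 probe set read 110 and 96.4, above background on both arrays but under the measured threshold. In the gene table used here GLI2 also carries GLI3 as an older synonym, and the probe sets were assigned as the platform annotation gives them.

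GLI1, an activator whose own transcription follows Hedgehog signalling, read 21.4 in the control and 18.9 in the knockdown. Both values are below background, so no fold is given. At this intensity a difference in GLI1 was not detectable.

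Of the ventral transcription factors, FOXA2, the floor plate and notochord factor, did not share the direction of SHH. Its probe set read 352 in the control and 311 in the knockdown, a log2 ratio of -0.18. OLIG2, the factor of motor neuron progenitors, read 4504 and 4035, a log2 ratio of -0.16. Both lay inside the probe set spread, of 0.52 for FOXA2 and 0.44 for OLIG2.

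The NKX6 genes, which encode related homeodomain repressors of ventral progenitors, pointed in opposite directions by small amounts. NKX6-1 read 25444 in the control and 19479 in the knockdown, 1.31-fold lower, with a log2 ratio of -0.39 and a spread of 0.41. NKX6-2 read 3637 and 4058, 1.12-fold higher, with a log2 ratio of 0.16 and a spread of 0.45. Neither difference exceeded the spread between probe sets. Intensities of different probe sets depend on how well each probe binds, so the members were not ranked by level.

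**Figure D1:**
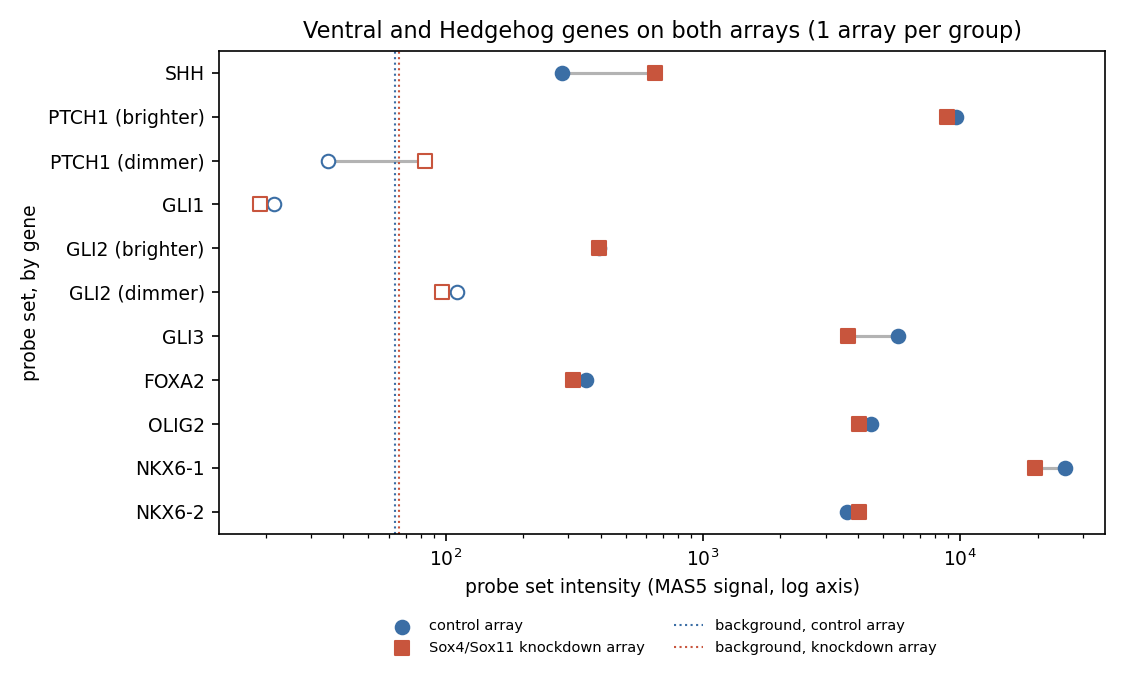
Intensity of each of the 11 probe sets (log axis) on the control array (circles) and the knockdown array (squares); open symbols lie under the measured threshold and dotted lines mark background on each array. SHH moves from 282 to 653, GLI3 from 5737 to 3678, and both GLI1 values lie left of the background lines.

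Among the 8 measured members, 1 (SHH) was at least 2-fold higher in the knockdown and 0 were at least 2-fold lower. Over all 9303 measured genes, 3.64% were higher and 1.06% lower by this rule. At 1.5-fold, SHH was again the 1 higher member and GLI3 the 1 lower member, against 11.4% of all measured genes higher and 5.71% lower. The other 6 members lay within 1.5-fold (75%), as did 82.9% of all measured genes, and with 8 genes a single gene makes 12.5%. These shares give no result about the set as a whole. Higher genes made up 77.4% of all genes past 2-fold as deposited, but 62.9% after median centring, 55.4% after quantile normalization and 57.6% after loess centring.

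The median log2 ratio of the 8 members was -0.14, and it was -0.16 without SHH, beside 0.02 over all measured genes. Of the 8, 3 lay above 0 (SHH, NKX6-2 and GLI2) and 5 below. Under median centring, quantile normalization and loess centring GLI2 moved below 0, which left 2 above and 6 below. A total of 6 members had a log2 ratio smaller than 1 probe set spread, and SHH and GLI3 did not.

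**Figure D2:**
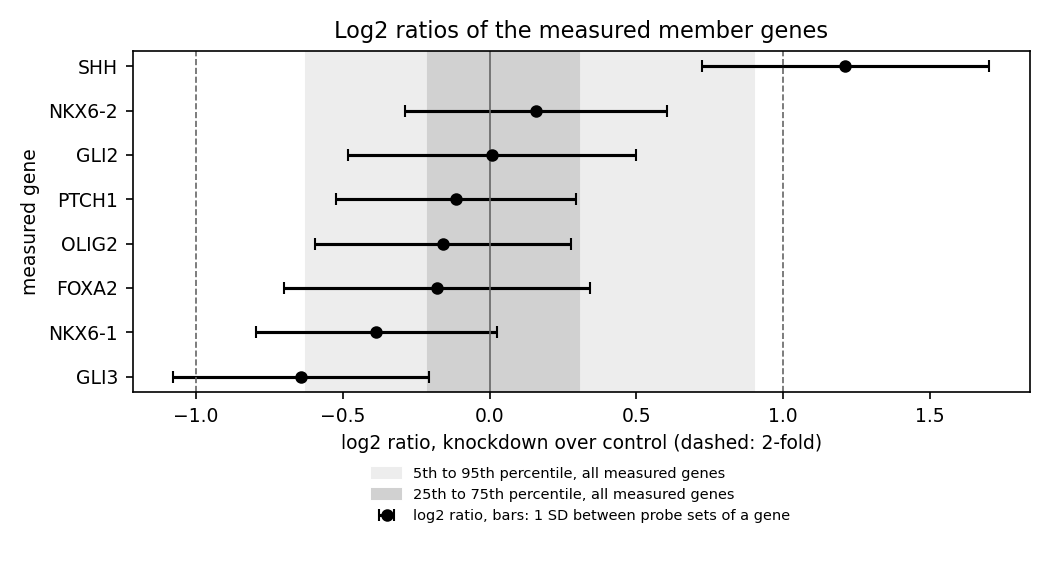
Log2 ratio of knockdown over control for the 8 measured members (points), with bars of 1 probe set spread (SD). The shaded bands hold the middle of all measured genes. SHH at 1.21 lies right of the 2-fold line and GLI3 at -0.64 just left of the wider band, and the other 6 bars cross 0.

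SHH had the highest log2 ratio of the members, so its difference from each other measured member is above 0 by construction. The differences, SHH minus the other gene, ran from 1.05 for NKX6-2 to 1.85 for GLI3. They were 1.20 for GLI2, 1.33 for PTCH1, 1.37 for OLIG2, 1.39 for FOXA2 and 1.60 for NKX6-1. In units of the joint probe set spread they were 1.59 for NKX6-2, 1.74 for GLI2, 1.94 for FOXA2 and 2.08 for PTCH1. For OLIG2, NKX6-1 and GLI3 they were 2.09, 2.50 and 2.83. These are differences of change within the pair of arrays, and the spread leaves out biological and array-to-array variation.

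The rest of the Hedgehog pathway was followed through lists of receptors and surface regulators, of transduction inside the cell, of the cilium and of target genes. In the first of these, 12 genes were measured, 0 of them at least 2-fold higher or lower, against 3.64% and 1.06% of all measured genes. The median log2 ratio of the 12 was 0.10, and it fell below 0 under 3 of the 10 other settings. LRP2, an endocytic receptor that binds SHH, read 170 and 338 (log2 ratio 0.99). SCUBE1, of a family that helps release the ligand, had a log2 ratio of 0.79. SCUBE1 (100.4 in the control and 173 in the knockdown) passed the measured threshold only through the knockdown array. BOC, a coreceptor, was at -0.61. HHIP, which binds and restrains Hedgehog ligands and is itself a target gene, was at 0.43, with 0.17 from its other measured probe set. IHH, which encodes another Hedgehog ligand, lay below background on both arrays. SMO, the signal transducer, named here after its value was seen, read 3852 and 3075 (log2 ratio -0.33).

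Among 18 measured genes of transduction inside the cell, 0 passed 2-fold, against 3.64% higher and 1.06% lower among all measured genes. At 1.5-fold, 4 were higher and 2 lower, against 11.4% and 5.71% of all measured genes. The median log2 ratio of the 18 was 0.07, and -0.03 after median centring. The 4 were SPOP, an adaptor that targets GLI proteins for degradation (0.82), the kinase genes CSNK1E (0.82) and PRKACB (0.80), and SUFU, which holds GLI proteins in the cytoplasm (0.72). The other measured probe set of SUFU gave 0.03, and those of PRKACB gave 0.13 and 0.48. KIF7, a kinesin of the ciliary tip that regulates GLI proteins, also named after its value was seen, was 1.55-fold lower (log2 ratio -0.64) by its brightest probe set, but the other gave 0.28. The kinase gene GSK3A, likewise named after its value was seen, was at -0.62, with -0.13 from its other probe set.

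Genes of the cilium and of intraflagellar transport were close to even by their brightest probe sets. Of 23 measured, 21 lay within 1.5-fold, as did 82.9% of all measured genes. At 2-fold, 0 were higher or lower, against 3.64% and 1.06% of all measured genes. The median log2 ratio of the 23 was 0.02, below 0 under 4 of the 10 other settings and 0.25 with the mean of measured probe sets. Most other measured probe sets of these genes lay above 0, up to 1.10 for RPGRIP1L and 1.33 for DYNC2LI1. Those below 0 were from IFT57 (-0.37), TCTN1 (-0.06) and CEP290 (-0.33, beside 0.94 and 0.32). OFD1, a centriole protein gene, was at 0.65, and MKS1 and TCTN1, of the ciliary transition zone, were at -0.61 and -0.57, with -0.06 from the other measured probe set of TCTN1. EVC, which encodes a ciliary partner of SMO, was at 0.43, and at 0.26 by its other probe set.

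Among 14 measured genes known as Hedgehog targets in one tissue or another, 1 was at least 2-fold higher and 0 lower. That is 7.14%, against 3.64% of all measured genes. The median log2 ratio was -0.07. HHIP, BOC and CDON are in the receptor list too. The list does not separate induced from repressed targets, so its median does not measure pathway output. The 1 gene past 2-fold was RAB34, a small GTPase gene, which read 1343 and 3288 (log2 ratio 1.29). FOXC2, a factor of sclerotome and mesenchyme, was at -0.73. The median was 0.11 with the filter at the 75th percentile and below 0 under the 9 remaining settings. GAS1 was not analysed here, since no probe set matched its symbol.

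**Figure D3:**
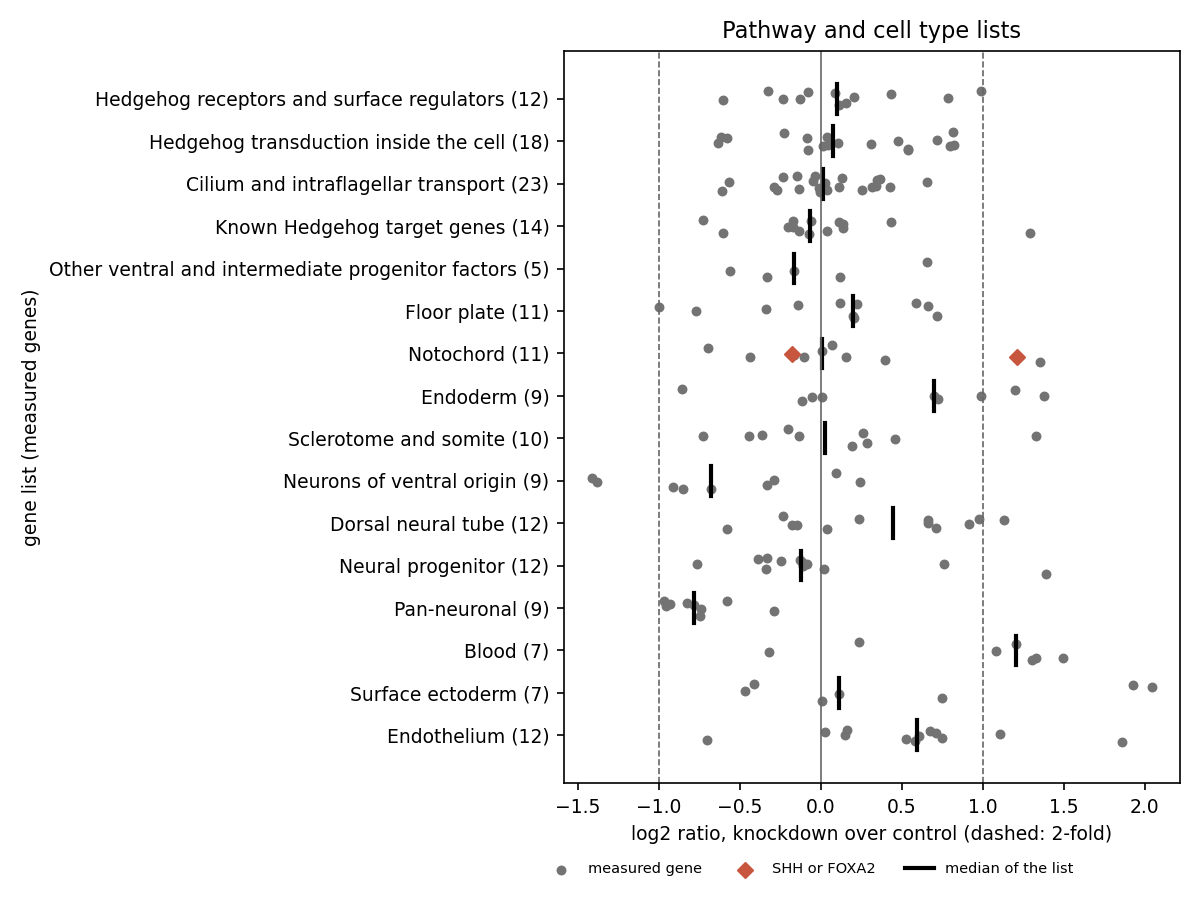
Log2 ratio of knockdown over control for each measured gene of the 16 lists (points), with the median of each list (black bar), the members SHH and FOXA2 as diamonds, and dashed lines at 2-fold. The 4 Hedgehog lists have medians between -0.07 and 0.10, the list of neurons of ventral origin -0.68, the endoderm list 0.70 and the blood list 1.20.

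Other progenitor factors of the ventral and intermediate neural tube were few. Of 5 measured, 0 passed 2-fold, against 3.64% higher and 1.06% lower among all measured genes. NKX2-1, a ventral forebrain factor, was at 0.65, SP8 at -0.56, PAX6 at -0.33 and the interneuron progenitor factor DBX2 at -0.16. NKX2-1 (110 in the control and 173.1 in the knockdown) passed the measured threshold only through the knockdown array. The median was -0.16, and 0.03 with the filter at the 25th percentile.

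In the list of neurons that arise from the ventral progenitor domains, 7 of 9 measured genes lay below 0 and 2 above. Of the 9, 2 (22.2%, against 1.06% of all measured genes) were lower by 2-fold or more. At 1.5-fold, 5 were lower and 0 higher, against 5.71% and 11.4% of all measured genes. The median of this list was -0.68, with -0.07 when genes of low intensity were kept and -1.15 over the 4 brightest. The 2 were ISL1, a factor of motor neurons (4160 and 1562, log2 ratio -1.41, and -1.31 from its other measured probe set), and VSX1 (4038 and 1545, log2 ratio -1.39). SLC18A3, the vesicular acetylcholine transporter gene, was at -0.92 and CHAT, the enzyme that makes acetylcholine, at -0.85. CHAT, among the 5 lower by 1.5-fold, passed the measured threshold only through the control array (185.6 in the control and 102.7 in the knockdown). Other motor neuron factors, named after their values were seen, lay nearer to 0 or above it, with ISL2 at -0.29, MNX1 at 0.09 and LHX3 at 0.24. Pan-neuronal genes were lower as well, with a median of -0.78 over 9 measured genes. Of the 9, 7 were at least 1.5-fold lower, against 5.71% of all measured genes, TUBB3 (-0.97) and SNAP25 (-0.96) the most. Neural progenitor genes had a median of -0.12 over 12, and 9 lay within 1.5-fold, as did 82.9% of all measured genes. All 12 were above background on both arrays, with summed intensities of 213097 and 193620. LIN28B (1.39), SOX1 (-0.77), SOX2 (0.76) and NES (-0.39) were furthest from 0.

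Genes listed for the floor plate, which makes SHH, did not share its size of difference. Of 11 measured, 0 were higher and 1 was lower (9.09%) by 2-fold or more, against 3.64% and 1.06% of all measured genes. At 1.5-fold, 3 were higher and 2 lower, against 11.4% and 5.71%. The median log2 ratio was 0.20, but -0.01 with the filter at the 75th percentile. The 2 lower were NTN3, a netrin gene, at -1.0 (1738 and 868) and the adhesion gene ALCAM at -0.77. The other measured probe sets of ALCAM gave 0.23 and -0.34. The 3 higher were the transcription factor genes FERD3L (0.72) and LMX1B (0.66), and SPON1 (0.59, 1585 and 2381). FERD3L (99.2 in the control and 163.1 in the knockdown) passed the measured threshold only through the knockdown array. LMX1B is also in the dorsal neural tube list, so this list is not specific to the floor plate. The sources used here do not say where NTN3 and ALCAM are made, so their lower values cannot be assigned to the floor plate. NTN1, the other netrin gene of the list, was at 0.20. The summed intensity of the 12 matched genes of this list was 17561 in the control and 15521 in the knockdown. ALCAM gave 5807 and 3400 of these sums and NTN3 gave 1738 and 868, so the sums do not measure the floor plate. None of the 12 was below background on both arrays.

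Tissues outside the neural tube also make SHH, and values of their markers are given beside it. Without SHH and FOXA2, 1 of 9 measured notochord genes was at least 2-fold higher, against 3.64% of all measured genes. It was NOTO, a notochord homeobox factor (81.8 and 208.8, log2 ratio 1.35). Its control signal lay under the measured threshold of 118, so NOTO passed the filter only through the knockdown array. The median of the 9 was 0.00, NOG was at -0.70, CHRD at -0.44 and TBXT, the defining notochord factor brachyury, at 0.40. The summed intensity of the 11 matched genes, most of it from COL2A1, was 11631 and 12319, and FOXA1 and SOX6 were below background on both arrays. In the endoderm list 2 of 9 measured genes (22.2%, against 3.64% of all measured genes) were higher by 2-fold or more and 0 lower. At 1.5-fold, 5 were higher and 1 lower, against 11.4% and 5.71% of all measured genes. The median was 0.70, but -0.05 over the 3 that passed the filter at the 75th percentile. The 2 past 2-fold were GATA5 (1.38, and 0.82 from its other measured probe set) and APOA1 (1.20, and 1.27). HHEX was at 0.99 and CDX2 at -0.86. Under the measured threshold, GATA6 and GATA4 were below background in the control and are at least 2.43-fold and 1.04-fold higher. HNF4A was below background in the knockdown and is at least 1.34-fold lower. Summed over 14 endoderm genes, the intensity was 18624 and 19515, with FOXA1 and APOA4 below background on both arrays. Most of these sums came from TF (9063 and 8374), CXCR4 (4077 and 3930) and EPCAM (3291 and 3312). The sums therefore do not measure the endoderm. The part of notochord and endoderm RNA in the SHH difference was not tested.

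Markers of further tissues differed between the arrays as well. In blood, 5 of 7 genes (71.4%, against 3.64% of all measured genes) were at least 2-fold higher. They were HBZ (1.33), HBA1 (1.30), HBE (1.20), HBBR (1.08) and SLC4A1 (1.49). The summed intensity over 8 blood genes was 32908 and 67664. The median of the 7 measured blood genes was 1.20. For surface ectoderm, 2 of 7 (28.6%) were at least 2-fold higher, KRT7 (2.04) and ESRP2 (1.93), with a median of 0.11. Sums over 10 genes were 5794 and 8084, with ESRP1 below background on both arrays. For endothelium, 2 of 12 (16.7%) were at least 2-fold higher, CDH5 (1.86) and TEK (1.11), with a median of 0.59 and sums of 4838 and 5836. That median is -0.70 when only the 1 gene past the 75th percentile, ETS1, is kept. For sclerotome and somite, 1 of 10 (10%) was, MYF5 (1.33), with a median of 0.03 and sums over 11 genes of 4945 and 5296. SLC4A1 (108 in the control), TEK (110) and MYF5 (108) passed the measured threshold of 118 only through the knockdown array. So did the endothelium genes TIE1 (97.2 in the control), KDR (104.1), FLT1 (109.9) and PECAM1 (114.5). All 12 matched endothelium genes were measured, and their median was 0.59 without a filter too. The part of these tissues in the members' differences was not tested.

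Genes of the dorsal neural tube, the opposite pole of the axis that Hedgehog patterns, lay on both sides of 0, 8 of 12 above and 4 below. Of the 12, 1 (8.33%, against 3.64% of all measured genes) was at least 2-fold higher, WNT1 (132 and 289, log2 ratio 1.13). At 1.5-fold, 6 were higher and 0 lower, against 11.4% and 5.71% of all measured genes. Their median was 0.45, but -0.06 over the 6 that passed the filter at the 75th percentile. MSX2 was at 0.98, WNT3 at 0.92 and PAX3 at 0.71. The 4 below 0, named after their values were seen, were PAX7 (3898 and 2613, log2 ratio -0.58), ZIC4 (-0.23), BMP7 (-0.18) and ZIC1 (-0.15), and the other measured probe set of BMP7 gave 1.40. The summed intensity of the 14 matched dorsal genes was nearly even, at 51248 and 49985. ZIC1 alone gave 33298 and 30090 of these sums, so they do not measure the dorsal neural tube.

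The labelled RNA of the arrays differed too. For actin, a control transcript probed at both ends, signal at the 3' end was 5.45 times that at the 5' end in the control and 1.85 times in the knockdown. For EF1A the values were 2.92 and 1.5, and for GAPDH 1.25 and 1.05. The sources used here do not say where in its transcript a member's probe set lies, and the part of this shift in the members' ratios was not tested. Of the members, PTCH1 and GLI2 have several probe sets and the other 7 have 1 each.

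**Figure D4:**
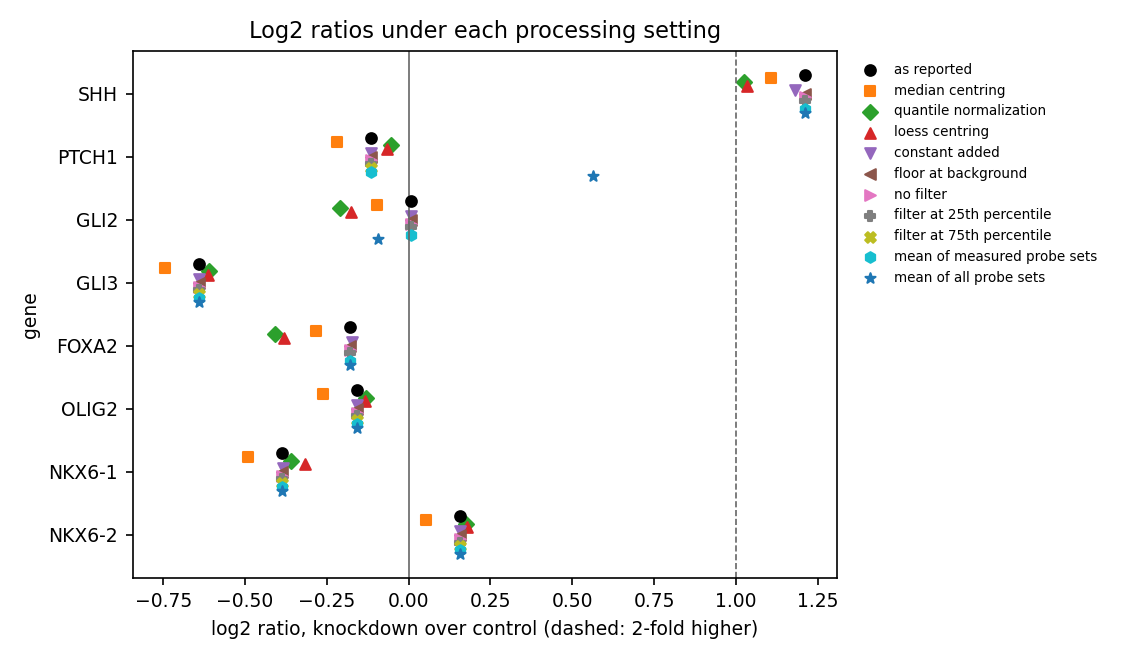
Log2 ratio of each measured member as reported (black) and under the 10 other processing settings (colours), with a dashed line at 2-fold higher. SHH runs from 1.02 to 1.21 and GLI3 from -0.75 to -0.61, while PTCH1 reaches 0.56 with the mean of all probe sets and GLI2 takes either sign.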

How the data were processed

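Probe set intensities of 2 chicken arrays were used, as linear values deposited by the authors; the submitters' processing notes name MAS5 5.0. Both arrays had a trimmed mean of 1000.3 (2% removed at each end), so the deposited intensities were already scaled. RNA (100 ng, per the labels' protocols) was labelled by amplification from the 3' end. No further scaling was applied before log2. Of 37693 chicken probe sets, 27166 had 1 symbol, 177 several and 10350 none. Symbols came from the platform annotation, updated by Entrez number with a RefSeq gene table (GRCg7b, no coordinates used).

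A gene was represented by its probe set with the highest mean log2 intensity over both arrays and called measured when that mean reached the median of all chicken probe sets, a signal of 118. Since the mean over both arrays decided, some genes passed with a control signal under 118. Among these were NOTO, MYF5, SLC4A1, TEK, TIE1, KDR, FLT1, PECAM1, SCUBE1, FERD3L and NKX2-1. CHAT passed with a knockdown signal under 118. Background came from 687 viral probe sets. Probe set spread was computed in 10 groups of intensity over 3853 genes. Counts past a fold use the representing probe set only. Other measured probe sets of list genes can differ, with 1.05 for DISP1, 1.03 for CSNK1A1, 1.20 for CCND2 and -1.49 for ETS1. With 1 array per group no test was made, and precision is limited by the number of arrays. The computation was tested on simulated data (Python 3.11.15, numpy 2.4.6, pandas 2.3.3, statsmodels 0.14.6).

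The members and the 16 gene lists were chosen with earlier results of these data known. The rule for named genes takes every member, SOX4 and SOX11, and in each list every measured gene past 2-fold and otherwise up to 4 with the largest log2 ratios in size, of which those most useful are given. Genes outside this rule were named after their values were seen. Among them are SMO, IHH, KIF7, GSK3A, TBXT, COL2A1, GATA4, GATA6, HNF4A, ETS1, SPON1, NTN1, FOXP1, PECAM1, KDR, TIE1 and FLT1. So are ISL2, MNX1, LHX3, PAX7, ZIC1, ZIC4, BMP7, CDON, and the genes given for other probe sets, such as DYNC2LI1 and DISP1. List genes were matched by symbol, and KIAA0586 as TA3. Synonyms of DBX1, ALAS2 and KRT19 led to genes of other names and were left out after the files were seen.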

Additional observations from a re-analysis of the deposited data

How the results depend on the processing

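The alternatives were 3 scalings (median centring, quantile normalization and loess centring, span 0.3), addition of 11.3 to both intensities, a floor at background, 3 filters, 2 probe set rules and a 1.5-fold rule. SHH stayed past 2-fold higher in each of these where it was measured, at 1.02 with quantile normalization and 1.04 with loess centring. Only the scalings and the added constant could change its ratio, since SHH has 1 probe set, above background on both arrays. The floor, the filters, the probe set rules and the 1.5-fold rule were therefore no check on its size. With the filter at the 75th percentile SHH was not measured, and 0 of 5 members were at least 2-fold higher. At 1.5-fold, 1 member was lower (GLI3) in place of 0. GLI3 stayed between -0.75 and -0.61 and NKX6-2 between 0.05 and 0.18, while PTCH1 moved to 0.56 with the mean of all probe sets, since its dimmer probe set then counts. The median of the members stayed below 0, from -0.24 to -0.13. Median centring shifted the median of all measured genes by -0.10 and the mean of all probe sets by 0.12.

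Over all measured genes, 339 were higher and 99 lower by 2-fold or more as reported. The counts were 256 and 151 after median centring, 209 and 168 after quantile normalization, 220 and 162 after loess centring, and 1300 and 652 without a filter. They were 815 and 316 with the filter at the 25th percentile, 71 and 46 at the 75th, and 664 and 191 with the mean of all probe sets. No paired analysis was possible because each group has 1 sample. Signal over background limits GLI1 and the dimmer probe sets of PTCH1 and GLI2.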
